A study of Mus musculus with 2 samples.

Results

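The integrated stress response converges on phosphorylation of the translation initiation factor eIF2. Phosphorylated eIF2 lowers translation of most mRNAs while the mRNA of the transcription factor Atf4 is translated more, so that much of the control of ATF4 acts on its protein rather than on its transcript. ATF4 then acts with other bZIP factors on genes for amino acid synthesis, amino acid transport, tRNA charging and adaptation to endoplasmic reticulum (ER) stress, and mouse embryonic stem (ES) cells, which grow fast and use much amino acid, transcribe many of these genes without added stress. The genes described here are Atf4 and 9 genes of its amino acid and ER stress arms. The other 9 are Atf3, Ddit3, Trib3, Asns, Chac1, Psat1, Phgdh, Sesn2 and Hspa5, and all 10 were found by exact name among the 26127 mRNA probes of the series.

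RNA-seq was available for 2 ES cell lines of strain 129S1/SvImJ, with 1 library each. WT cells were unmodified and carried 2 normal copies of each H3.3 gene, H3f3a and H3f3b. G34R cells carried a glycine to arginine change at position 34 of H3.3 on 1 H3f3a allele, as a minigene that Cre recombinase had brought under the endogenous H3f3a promoter, with both H3f3b alleles normal. Both lines were grown in serum with leukaemia inhibitory factor, no stress treatment is named in the labels, and the G34R library came from a targeted line, so genotype cannot be told apart from differences between lines or cultures.

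Values are RPKM, reads scaled to the length of the merged transcript and to the total of the library. Comparisons of levels between genes depend on that length and on how well reads could be placed at each gene. Small genes with few reads fell on steps worth 1 read, which gave an estimated total of 87.7 M reads for WT and 72.6 M for G34R. Intervals below are 95% exact intervals from the reads estimated for each gene. They cover counting error only, and with 1 library per line no difference has a replicate check or a test. H3f3a had 8.17 RPKM in WT and 4.89 in G34R, a gene value that does not separate the mutant from the normal allele. ES cell markers were abundant in both libraries (Pou5f1 194.34 and 189.46 RPKM, Sox2 73.83 and 75.05), but Nanog was 127.07 and 52.24 and Zfp42, on chromosome 8, 180.30 and 16.40. Of the 8 ES cell markers these 2 were lower by more than 2-fold and none was higher. Of all genes with at least 0.25 RPKM in 1 library, 9.64% were lower and 5.79% higher by more than 2-fold. Klf4 was higher by more than 1.5-fold (25.14 and 43.71), and the median log2 (G34R/WT RPKM) of the 8 markers was -0.04. The 6 primitive endoderm markers were all higher in G34R, with a sum of 2.07 RPKM in WT and 4.55 in G34R. Of 7 fibroblast markers, Postn, Dcn and Lum were listed at 0 in both libraries and the 7 summed to 1.48 and 0.94 RPKM, of which Thy1, the 1 marker above 0.2, gave 1.18 and 0.71. The part of these marker differences in the results below was not tested.

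The promoters of 5 of the 10 genes held letters that match a sequence element of the stress response. These are shown as a description of sequence, and binding of any factor was not measured. The elements searched on both strands were TGATGNAA, a core of the composite site bound by ATF4 with C/EBP proteins, and the ER stress element of chaperone genes, which is CCAAT and CCACG with 9 bases of any kind between them. Windows ran from 250 bases before the RefSeq start (GRCm38.p6) to 50 after it, and each printed stretch was found unchanged in mm9. The matched letters are in capitals, and where the match lies on the opposite strand they read as its reverse complement.
Asns (chr6:7643210-7643359, minus strand): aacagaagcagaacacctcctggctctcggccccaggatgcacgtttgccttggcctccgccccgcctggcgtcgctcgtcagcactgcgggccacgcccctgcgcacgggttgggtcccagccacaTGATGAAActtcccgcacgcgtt
Atf3 (chr1:193007213-193007362, minus strand): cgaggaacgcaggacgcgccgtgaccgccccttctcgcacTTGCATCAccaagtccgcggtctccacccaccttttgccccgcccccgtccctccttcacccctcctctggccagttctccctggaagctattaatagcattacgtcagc
Chac1 (chr2:119176728-119176877, plus strand): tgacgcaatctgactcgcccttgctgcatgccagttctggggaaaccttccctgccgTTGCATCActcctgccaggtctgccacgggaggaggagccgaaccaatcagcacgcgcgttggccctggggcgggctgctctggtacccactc
Trib3 (chr2:152169764-152169793, minus strand): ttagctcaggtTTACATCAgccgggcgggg
Hspa5 (chr2:34627460-34627609, plus strand): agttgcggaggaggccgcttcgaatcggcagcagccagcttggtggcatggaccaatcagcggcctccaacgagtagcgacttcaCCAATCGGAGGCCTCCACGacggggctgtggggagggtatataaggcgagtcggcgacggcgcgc

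TGATGNAA was present in the windows of Asns (bases -23 to -16 from the start), Atf3 (-110 to -103), Chac1 (-193 to -186) and Trib3 (15 to 22 after the start). Of all 32851 promoter windows, 3.97% held it. The ER stress element was present in Hspa5 at -65 to -47 and in 0.119% of all windows. The windows of Atf4, Ddit3, Psat1, Phgdh and Sesn2 held neither string of letters, which says nothing about binding elsewhere. The sequences do not sort the genes by their values below. Of the 4 genes with TGATGNAA, Atf3 and Trib3 had log2 (G34R/WT RPKM) values of 0.82 and 0.54, and Asns and Chac1 had 0.03 and 0.05.

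No gene of the 10 differed by more than 2-fold between the libraries, in either direction. Among the 13366 genes with at least 0.25 RPKM in 1 library, 5.79% were higher in G34R by more than 2-fold and 9.64% lower, and all 10 genes passed this filter. With a threshold of 1.5-fold, Phgdh and Atf3 were higher and none was lower, beside 13.3% and 18.1% of all genes. Atf4 lay just under that threshold, at 1.49969-fold. This count depends on the scaling. With both libraries set to the same RPKM sum Atf4 also passed (3 genes, beside 14.7% of all genes higher), and with the median of expressed genes set to 0 Atf4 and Trib3 did (4 genes, beside 14.9%). With 1 RPKM added to every value Phgdh alone passed, beside 5.76%. Genes with a mean of 10 to 100 RPKM were less spread, with 2.79% higher and 3.26% lower by more than 2-fold, and 8.26% and 8.8% by more than 1.5-fold. Atf4, Asns, Psat1, Phgdh, Sesn2 and Hspa5 lie in this range, and of these Phgdh passed 1.5-fold. The median log2 ratio of the 10 genes was 0.19, beside -0.07 for all genes tested, and 8 of the 10 lay above the median of all genes.

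**Figure D1:**
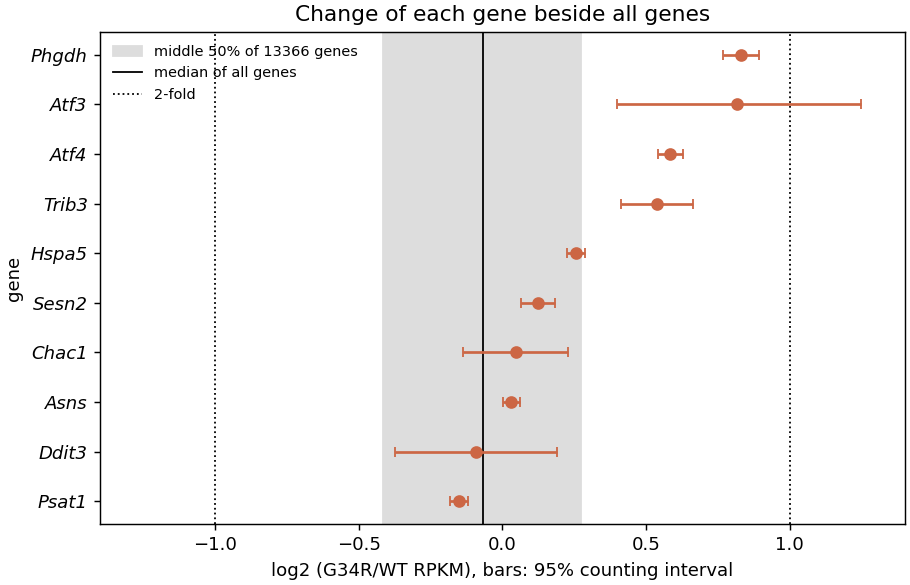
Log2 (G34R/WT RPKM) of each of the 10 genes (points, with bars for the 95% counting interval from 1 library per line), beside the median (line) and middle 50% (grey) of the 13366 genes with at least 0.25 RPKM in 1 library; dotted lines mark 2-fold. Phgdh, Atf3, Atf4 and Trib3 lie to the right of the grey band, and no point passes a dotted line.

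Atf4 itself is transcribed from chromosome 15 (mm9, 80085614 to 80087970, plus strand, ENSMUSG00000042406) and has 1724 bp of merged exon. It had 48.67 RPKM in WT cells and 72.99 in G34R cells, from about 7359 and 9138 reads. The log2 ratio was 0.58 (counting interval 0.54 to 0.63), and 13.4% of all genes tested had a ratio as high or higher. By level Atf4 was the fourth of the 10 in WT cells and the second in G34R cells. The 10 genes with at least 1 RPKM nearest to it on the chromosome had a median log2 ratio of -0.12, and 3 of these 10 lay above the median of all genes. The transcript level does not give the amount of ATF4 protein.

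The stress-induced transcription factors Ddit3 and Atf3 were at low levels in both lines. Ddit3, which encodes CHOP, a factor tied to cell death under lasting stress, had 1.61 RPKM in WT and 1.51 in G34R (about 242 and 188 reads). Its log2 ratio of -0.09 had a counting interval of -0.37 to 0.19, so a difference was not detectable at this depth. Ddit3 (chromosome 10, 126727830 to 126733344) overlaps Mars on the opposite strand, and the counting was strand-specific. Mars had 44.69 and 43.03 RPKM.

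Atf3, a bZIP factor induced in many stresses, was the lowest of the 10 in both libraries, with 0.46 RPKM in WT and 0.81 in G34R. These values rest on about 80 and 117 reads, and the log2 ratio of 0.82 had the widest interval of the 10 genes, 0.40 to 1.25. Adding 1 RPKM to both values lowered it to 0.31. Atf3 lies on chromosome 1 (192994175 to 193007219, minus strand), and 9 of its 10 neighbours lay above the median of all genes, with a median of 0.09.

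Trib3, a pseudokinase that binds ATF4 and CHOP and restrains them, lies on chromosome 2 (152163158 to 152169768, minus strand). It had 5.12 RPKM in WT and 7.43 in G34R. The log2 ratio was 0.54 (interval 0.41 to 0.66) from about 954 and 1147 reads. Set against Atf4 in the same library, Trib3 stood at 0.105 of its RPKM in WT and 0.102 in G34R, so the 2 transcripts kept nearly the same proportion. Chac1, which degrades glutathione, lies on the same chromosome (chromosome 2, 119176965 to 119180117). It had 3.72 and 3.84 RPKM, and its interval of -0.14 to 0.23 included 0. Sesn2, an inhibitor of mTORC1 that senses leucine, lies on chromosome 4 (132047947 to 132066416, minus strand). It had 16.60 and 18.09 RPKM, a log2 ratio of 0.12 (0.07 to 0.18). The probe Gm12981 lies within Sesn2 on the same strand (0.53 and 1.13 RPKM), so some reads may belong to either. The 3 genes therefore differed in size of change, with Trib3 outside the middle 50% of all genes (log2 -0.42 to 0.27) and Chac1 and Sesn2 inside it.

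Asns, which makes asparagine from aspartate and glutamine (chromosome 6, 7625169 to 7643254, minus strand), was the most abundant of the 10 genes in both libraries, with 79.69 RPKM in WT and 81.44 in G34R. Its log2 ratio was 0.03 (0.00105 to 0.0616) from about 19114 and 16175 reads, and 42.2% of all genes tested had a ratio as high or higher. Atf4 thus stood at 0.611 of the Asns level in WT and at 0.896 in G34R. Scaling both libraries to the same RPKM sum, which shifts every ratio by 0.05, gave 0.08 for Asns.

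Phgdh and Psat1 encode the first 2 enzymes of serine synthesis from 3-phosphoglycerate, and Psph encodes the last. Phgdh lies on chromosome 3 (98117093 to 98143913) and Psat1 on chromosome 19 (15979168 to 16021827), both on the minus strand. Phgdh had 16.44 RPKM in WT and 29.22 in G34R, a log2 ratio of 0.83 (0.77 to 0.89), the highest of the 10. Psat1 had 51.51 and 46.42 RPKM, a log2 ratio of -0.15 (-0.18 to -0.12), the lowest of the 10. Psph had 12.23 and 12.28 RPKM. The 3 steps of the pathway were therefore in different proportions in the 2 libraries, with Phgdh at 0.319 of the Psat1 level in WT and 0.629 in G34R, whereas Psat1 stood at 4.21 and 3.78 times Psph.

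The Phgdh value carries a particular uncertainty. Of its 1849 different start positions for a 50 bp read within exons, 959 (51.9%) gave a sequence that also occurs elsewhere in mm9, at 18 other loci. The locus with the most shared sequence holds 766 such matches on chromosome 8 (78235361 to 78237153). Genes on chromosome 8 with a start past 59 Mb, which includes this place, had a median log2 ratio of 0.47 over 432 genes. Probes with RPKM values lay at 4 of the 18 loci. At the chromosome 8 locus above, 1700007B14Rik had 0 RPKM in WT and 0 in G34R. On chromosome 7, Il16 had 0 and 0, and Vmn2r-ps54 had 0 and 0.02. Gm6756 on chromosome 18 had 0.1 and 0.24. Whether these values count reads from the shared sequence was not tested. How the reads were divided among the 18 loci could not be seen from RPKM, and their part in the Phgdh difference was not tested. For Psat1 10 of 3666 positions (0.273%) were shared, and for the other 8 genes none was.

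Hspa5 encodes BiP, the main HSP70 chaperone of the ER lumen and the standard readout of ER stress (chromosome 2, 34627490 to 34632051, plus strand). It had 54.79 RPKM in WT and 65.46 in G34R, a log2 ratio of 0.26 (0.23 to 0.29) from about 16880 and 16700 reads. This lies inside the middle 50% of all genes, and 26.1% had a ratio as high or higher. Of 10 neighbours on chromosome 2, 4 lay above the median of all genes.

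**Figure D2:**
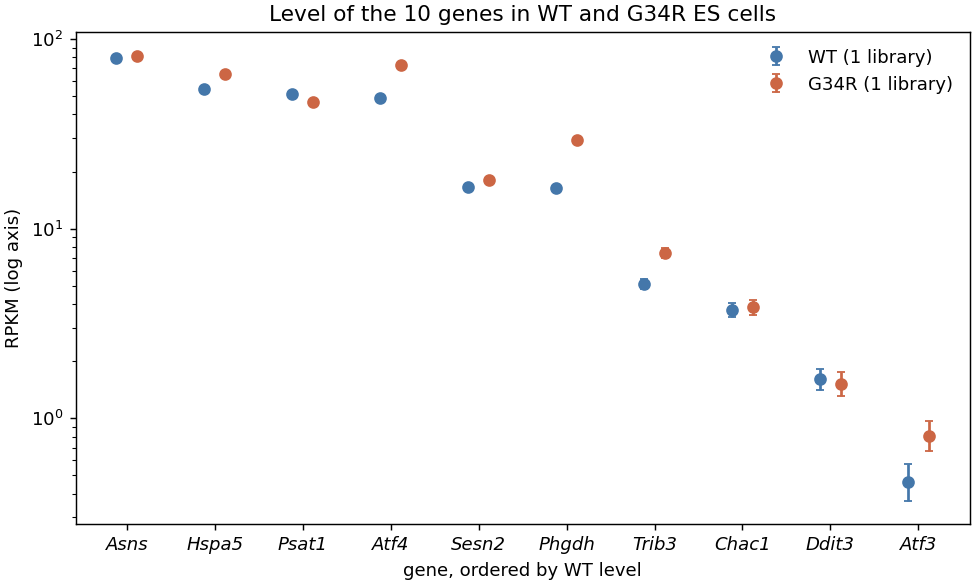
RPKM (log axis) of the 10 genes in the WT and G34R libraries, ordered by WT level, with 95% Poisson counting intervals as bars. Levels run from 79.69 (Asns) to 0.46 (Atf3) RPKM in WT cells, and the order changes mainly at Atf4 and Phgdh.

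By level, WT cells had Asns first, followed by Hspa5, Psat1, Atf4, Sesn2, Phgdh, Trib3, Chac1, Ddit3 and Atf3. Of these neighbours in order, only Sesn2 and Phgdh had overlapping counting intervals. In G34R cells the order was Asns, Atf4, Hspa5, Psat1, Phgdh, Sesn2, Trib3, Chac1, Ddit3 and Atf3, and no neighbouring pair overlapped. The 4 most abundant genes were the same in both libraries, and so were the 4 least abundant, in the same order.

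The genes lie on 8 chromosomes and none is on chromosome 8. For Phgdh, Atf3, Atf4 and Trib3 the medians of the 10 neighbours were -0.09, 0.09, -0.12 and 0.06, below the gene's own log2 ratio in each case. Asns was the reverse, with a neighbour median of 0.27 and a value of 0.03. The stretch that held the 10 neighbours differed between genes, with the farthest at 3588 kb for Asns and 101 kb for Ddit3.

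**Figure D3:**
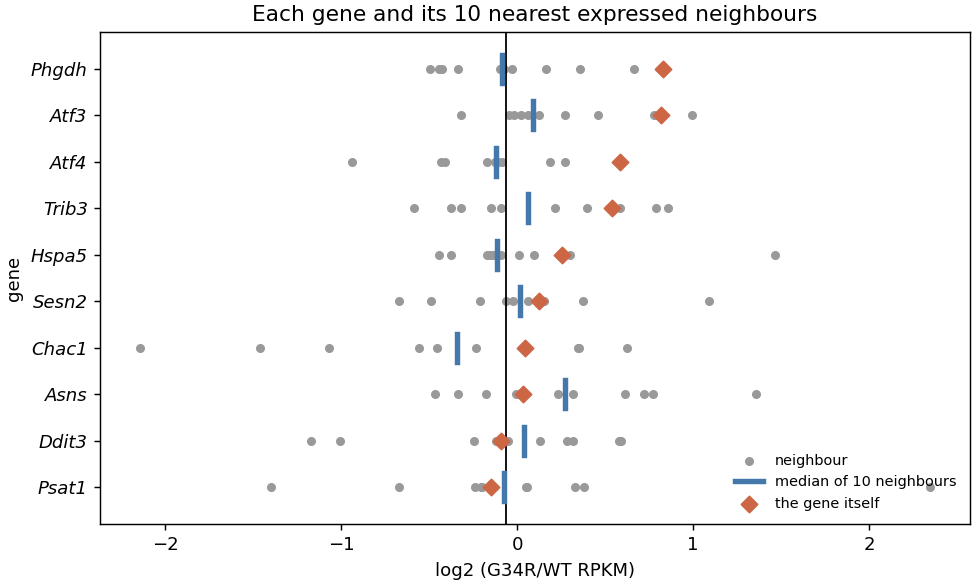
Log2 (G34R/WT RPKM) of each gene (diamond) and of the 10 nearest genes with at least 1 RPKM in 1 library on its chromosome (grey points, blue bar for their median); the black line is the median of all genes tested. Phgdh and Atf4 lie at or beyond nearly all of their neighbours, whereas Sesn2, Chac1, Ddit3 and Psat1 lie among theirs.

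The wider pathway was described with 10 fixed lists of 125 other genes, of which 124 were found and 119 passed the filter. Of these, 6 (5.04%) were higher in G34R by more than 2-fold and 3 (2.52%) lower, beside 5.79% and 9.64% of all genes. The median log2 ratio over the 119 genes was -0.05. These lists are described by counts, and none was tested as a set.

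Upstream of Atf4, no kinase of eIF2 passed 2-fold. Eif2ak3, encoding the ER stress sensor PERK, had 3.84 RPKM in WT and 2.44 in G34R (log2 -0.65). Eif2ak4, encoding the amino acid sensor GCN2, had 2.43 and 3.69 (0.60), and lay in the other direction. Eif2ak1, encoding the haem-regulated kinase HRI, had 5.20 and 4.41 (-0.24). Eif2ak2, encoding the RNA-activated kinase PKR, had 2.42 and 2.03 (-0.25). Of the 8 subunits of eIF2 and of its exchange factor eIF2B, 7 lay below the median of all genes and none passed 2-fold, with a list median of -0.23. The most abundant were Eif2s2 (42.80 and 34.29 RPKM), Eif2b5 (41.37 and 32.84) and Eif2s1 (35.80 and 27.79), which encodes the phosphorylated subunit.

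Among the 7 eIF2 phosphatase genes and GCN2 cofactors, Impact was the 1 gene past 2-fold. It encodes an inhibitor of GCN2 activation and is imprinted in mouse, and had 28.83 RPKM in WT and 9.10 in G34R (log2 -1.66, interval -1.73 to -1.60). Gcn1l1, encoding the GCN2 activator GCN1, had 10.61 and 15.06 RPKM (0.51). Ppp1r15a, encoding the stress-induced phosphatase subunit GADD34 and itself an ATF4 target, had 3.78 and 5.48 RPKM (0.54). The abundant catalytic subunits Ppp1ca (104.70 and 108.39) and Ppp1cc (22.86 and 24.13) and the constitutive Ppp1r15b (19.72 and 21.24) differed little.

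The 12 bZIP partners and stress transcription factors had 11 probes, 10 of them above the filter, with a median of 0.02, which was -0.11 without Jund on chromosome 8 or with no filter on low values. Cebpd had no probe in the files. Jun, an AP-1 subunit, was higher in G34R (0.73 and 1.82 RPKM, log2 1.32) and Cebpa was lower (1.24 and 0.50, log2 -1.31), both at low levels. The most abundant were Jund (10.84 and 16.93), Nfe2l2 (11.24 and 14.90), the regulator of the oxidative stress response, and Atf2 (5.71 and 3.83). The C/EBP partners Cebpb (1.07 and 0.96) and Cebpg (4.05 and 3.74) had intervals close to or including 0. Atf5 was lower in G34R (3.62 and 2.57, log2 -0.49, interval -0.68 to -0.31). Of the 10 genes above the filter, 5 lay above the median of all genes and 5 below it.

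In the amino acid arm, 16 enzymes of amino acid and one-carbon metabolism had 15 above the filter and none past 2-fold, with a median of 0.14, and 12 of the 15 lay above the median of all genes. Glul, glutamine synthetase, had 38.46 RPKM in WT and 55.75 in G34R (0.54). Shmt2, which passes a carbon from serine to folate in mitochondria, had 38.10 and 48.52 (0.35). Got2 had 31.23 and 49.37 (0.66), and lies on chromosome 8.

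Among 10 amino acid transporters above the filter, 2 were higher in G34R by more than 2-fold and none was lower. Of all genes, 5.79% were higher and 9.64% lower. With a threshold of 1.5-fold 3 were higher and 2 lower, beside 13.3% and 18.1% of all genes. The 2 lower ones were Slc7a3 (20.24 RPKM in WT and 12.84 in G34R, log2 -0.66) and Slc43a1 (1.77 and 1.14, log2 -0.63). Slc7a5, the light chain of the large neutral amino acid exchanger, had 30.08 RPKM in WT and 67.76 in G34R (log2 1.17, interval 1.14 to 1.21). Its heavy chain Slc3a2 had 30.25 and 46.90 (0.63), so the light chain transcript stood at 0.994 of the heavy chain RPKM in WT and at 1.44 times it in G34R. Slc7a5 lies on chromosome 8 past 59 Mb, where 432 genes with at least 1 RPKM had a median log2 ratio of 0.47, beside 0.36 for all 595 such genes of the chromosome. Slc1a5, a glutamine transporter on chromosome 7, had 8.90 and 17.96 RPKM (1.01), just past 2-fold, and its interval of 0.95 to 1.08 included that threshold. Slc38a2, another transporter that amino acid limitation induces, had 34.10 and 32.75 (-0.06). Slc7a11, the cystine transporter, had 0.01 and 0.02 RPKM, too low to compare. The median of the list was 0.07 and its sign turned on single genes, being -0.06 without Slc7a5 or with a filter at 1 RPKM, which leaves out Slc6a9, and 0.21 with no filter.

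None of the 20 cytosolic aminoacyl-tRNA synthetases passed 2-fold, and the list median of -0.06 was close to that of all genes. Gars, Kars and Nars, for glycine, lysine and asparagine, were the most abundant, with 99.09 and 126.06, 86.55 and 126.32, and 71.84 and 73.35 RPKM. Of the 20, 3 lie on chromosome 8, Kars and Aars among them, and without these 3 the list median was -0.08. TGATGNAA, held by 3.97% of all windows, was found in 5 of the 12 synthetase genes that had a promoter window, namely Aars, Gars, Iars, Tars and Yars, whose log2 ratios ran from -0.69 (Yars) to 0.35 (Gars and Aars). In the other lists it was found in 3 of 13 amino acid synthesis genes with a window, 2 of 7 transporters, 2 of 14 stress effectors, 1 of 10 bZIP and stress factors, 1 of 7 eIF2 and eIF2B subunits and 1 of 12 ER stress sensors and degradation genes. None of 4 kinases, 3 phosphatase and cofactor genes and 12 ER chaperones held it. The 3.97% counts windows, whereas a gene was counted once with a match in any of its windows. The 7 transporters had 10 windows and the 14 stress effectors 20.

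The 17 stress effectors and secreted targets had 15 above the filter. Of these, 3 were higher in G34R by more than 2-fold and none lower, beside 5.79% and 9.64% of all genes. The 3 were Trib1 (1.09 and 2.57 RPKM, log2 1.24) and Trib2 (0.38 and 0.79, log2 1.06), relatives of Trib3 in the Tribbles family, and Gadd45a (6.19 and 12.95, log2 1.06), a growth arrest gene. With 1 RPKM added to every value, 0 passed. With 1.5-fold 4 were higher and 1 lower, Stc2 (1.79 and 1.12, log2 -0.68), beside 13.3% and 18.1% of all genes. The list median was 0.22, and 11 of the 15 lay above the median of all genes. Eif4ebp1, the inhibitor of cap-dependent translation, was the most abundant (124.84 and 103.80, log2 -0.27), and lies on chromosome 8. Ddit4, an inhibitor of mTORC1, had 19.63 and 30.88 (0.65), and Sqstm1, an autophagy receptor, 21.34 and 23.25 (0.12). Fgf21, a hormone that ATF4 activates in liver, was at 0.02 and 0.04 RPKM.

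Most genes for protein folding in the ER lay on the other side of the median of all genes from Hspa5. Of 16 ER chaperones and folding enzymes, 13 lay below that median and none passed 2-fold, with a list median of -0.30. Canx (98.92 and 72.14 RPKM), Calr (90.05 and 80.54) and P4hb (88.10 and 79.94) were the most abundant, and Calr lies on chromosome 8. Hspa5, the chaperone of the 10 genes, was higher in G34R while its ER partner Hsp90b1 was lower (77.27 and 69.81, log2 -0.15), so that Hspa5 stood at 0.709 of Hsp90b1 in WT and 0.938 in G34R. The lowest of the list by log2 ratio were Dnajb9 (-0.76), Sdf2l1 (-0.75) and Dnajb11 (-0.75), and the highest was Pdia3 (24.33 and 47.09, log2 0.95), which passed 2-fold only when the median of expressed genes was set to 0. The ER stress element stood in 6 of the 12 chaperone genes with a promoter window (Calr, Canx, Creld2, Dnajc3, Hsp90b1 and Pdia6), in 2 of 12 ER stress sensors and degradation genes (Derl3 and Syvn1) and in no gene of the other lists.

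Of 14 ER stress sensors and genes of ER-associated degradation, Xbp1 alone passed 2-fold. Xbp1, the factor whose mRNA the sensor IRE1 splices, had 17.72 RPKM in WT and 7.37 in G34R (log2 -1.27, interval -1.35 to -1.19). RPKM per gene does not separate spliced from unspliced Xbp1. Ern1, which encodes IRE1, had 1.10 and 1.14, Atf6 4.62 and 4.40, Mbtps1, the protease that cuts ATF6, 14.26 and 19.33, and Atf6b 6.19 and 6.67. Mbtps1 lies on chromosome 8. The median of the list was -0.06.

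**Figure D4:**
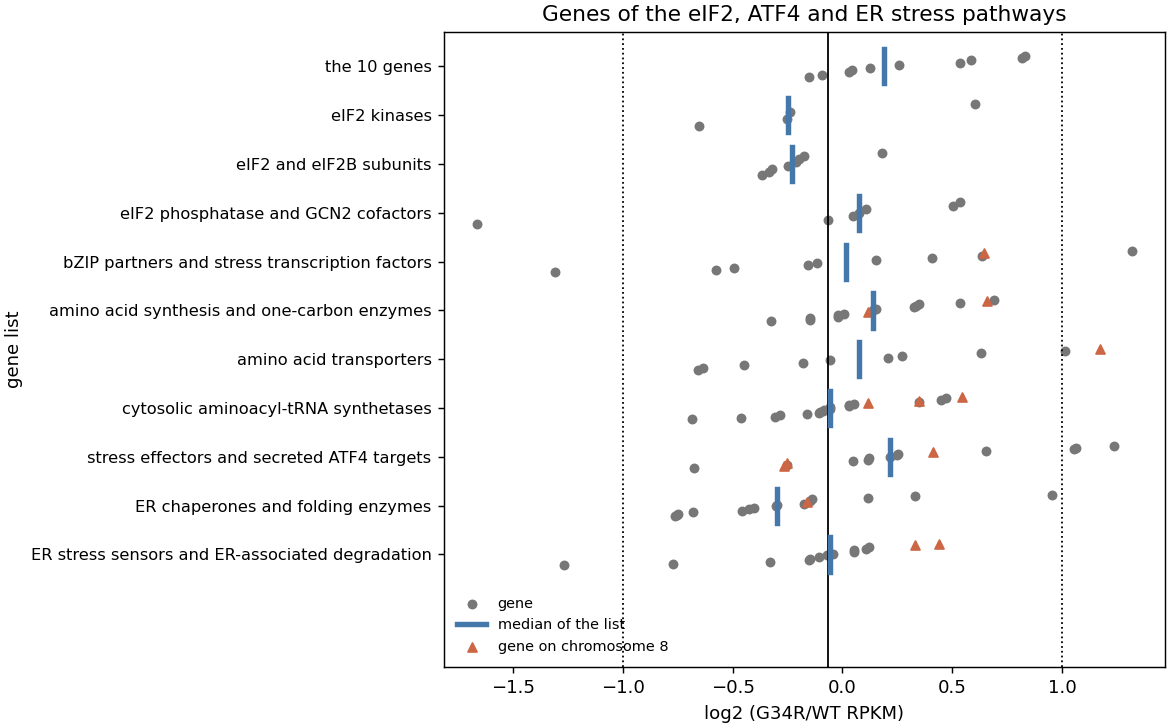
Log2 (G34R/WT RPKM) of each gene with at least 0.25 RPKM in 1 library, by list, for the 10 genes and the 10 pathway lists (points, with triangles for genes on chromosome 8, and a blue bar for the list median); the black line is the median of all genes and dotted lines mark 2-fold. Most points lie within 2-fold, with the 10 genes at a median of 0.19 and the ER chaperones at -0.30.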

How the data were processed

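RNA from 1 WT and 1 G34R culture was made into stranded total RNA libraries and read as 50 bp single ends. The authors aligned reads to mm9 with STAR 2.4.2a (per the labels), counted primary alignments in Seqmonk over merged transcripts with regard to strand, and deposited RPKM to 2 decimals. RPKM is relative to each library's total, so a large change in other genes moves every value.

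From RPKM, log2 (G34R/WT RPKM) was computed with values under 0.01 set to 0.01. Calls needed at least 0.25 RPKM in 1 library and more than 2-fold. Library totals were those that brought the RPKM of short genes (1 exon, below 800 bp, below 6 reads) nearest to whole reads. The check used multi-exon genes as short and with as few reads, where the rounding of RPKM was worth a small part of 1 read. Of these values, 91 of 91 in WT and 114 of 114 in G34R came out whole within that rounding and 0.02 reads. Reads per gene used merged GENCODE M1 exons, whose span equalled the probe's for 25790 of 26127 probes. Intervals are exact (Poisson for a level, Clopper-Pearson for a ratio). Sequences shared between loci were exact 50 bp matches within exons, searched in the mm9 genome.

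No test was made, with 1 library per line. The 10 genes and the lists were chosen with earlier results of these data known. Named were the 10 genes and, of each list, the 3 most abundant and up to 4 past 2-fold with at least 1 RPKM. Other genes were named for their role or their ratio after their values were seen. Scripts were tested on simulated data. Python 3.11.15, NumPy 2.4.6, pandas 2.3.3, SciPy 1.17.1, Numba 0.67.0 and matplotlib 3.10.9 were used.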

Additional observations from a re-analysis of the deposited data

How the results depend on the processing

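The alternatives were 1 or 0.01 RPKM added to every value, a filter at 1 RPKM or none, 2 other scalings, thresholds of 1.5-fold and 3-fold, and, for the lists, leaving out chromosome 8. None of the 10 genes passed 2-fold under any of these filters, additions or scalings, and none changed sign. The settings fixed this outcome, so it is no check of the differences. Both scalings raised every log2 ratio by 0.05, an equal addition to both values only shrinks a ratio, and a filter leaves it unchanged. A threshold of 1.5-fold called 2 up, and with it, as alternatives chosen after seeing the data, equal RPKM sums called 3 (1962 up and 2219 down in the whole table), the median set to 0 called 4 (1997 and 2184) and 1 RPKM added called 1. The median of the 10 was 0.12 with at least 1 RPKM, which leaves out Atf3, and 0.18 to 0.24 otherwise. Over the 10 lists, 1.5-fold gave 14 genes up and 13 down, 3-fold 0 and 1, and 1 RPKM added left 1 up (Slc7a5). Over the whole table, 1 RPKM added gave 196 up and 356 down, a filter at 1 RPKM 439 and 689, no filter 1445 and 2877, 1.5-fold 1780 and 2422, and 3-fold 331 and 721. Setting the median of expressed genes to 0 shifted every log2 ratio by 0.05. Of the list medians, 2 changed sign. The transporter median was -0.06 without chromosome 8 and with a filter at 1 RPKM, and the bZIP median was -0.11 without chromosome 8 and with no filter. The interval of Ddit3 and of Chac1 includes 0, so their direction is not set at this depth. For the other genes it leaves out 0 but covers counting error only, so it does not set a direction between the lines. No paired analysis was possible because each line had 1 library.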
